A study of Mus musculus with 4 samples.

Results

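The genes described here encode the linker and core histones, the proteins that package DNA into chromatin. They were taken by name, among the genes kept here: those whose symbol on the array's annotation, or whose current RefSeq symbol, begins with H1f and a digit, H2ac, H2bc, H3c, H4c or the older Hist1h to Hist4h. A probe set, the group of probes that the array summarises to 1 value, had to carry exactly 1 symbol, and the brightest probe set stood for its gene. This gave 32 histone genes of 17671 genes kept, 30 by the platform symbol and 2 by the updated symbol (H1f8, listed as H1foo, and H1f10, listed as H1fx). By class they were 8 genes of linker histone H1, 10 of H2A, 9 of H2B, 3 of H3 and 2 of H4. The family was selected on name with earlier results of these data known, including high OVA minus PBS differences of its genes, and the probe set that stood for a gene was chosen by its mean level over the 4 arrays. All values are therefore a description.

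Microglia, the resident macrophages of the brain, came from the whole brain of male C57BL/6J mice given OVA (the allergy group) or PBS (the control group) and were taken on the day after intranasal challenge, at P70 or at P30 (postnatal day 70 or 30). Each group pooled the microglia of 4 samples, and the 4 groups, OVA at P70, PBS at P70, OVA at P30 and PBS at P30, had 1 array each. No spread within a group was therefore measured and no difference was tested. Values are log2 intensities. A difference is the log2 value of 1 array minus that of another, and the size that counted was 1.5-fold or more, which is 0.585 on the log2 scale.

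DNA is wound around an octamer of the core histones H2A, H2B, H3 and H4, and linker histones of class H1 bind where the DNA enters and leaves this particle. Most of the genes below belong to the replication-dependent kind: they lie in clusters, lack introns, are transcribed mainly in S phase when new DNA has to be packaged, and give mRNAs that end in a stem-loop rather than a poly(A) tail. Some of them are known to give polyadenylated mRNA as well in cells that have left the cycle. Replacement variants such as H2A.Z and H3.3 are made outside S phase too. Many members of a core histone class are near-identical in sequence, so the signal of a probe set can include copies other than the gene it is named for.

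Of the 32 genes, 22 lay on chromosome 13, 6 on chromosome 3, 2 on chromosome 6, and 1 each on chromosomes 11 and 15. A level floor was set at the median gene's mean over the 4 arrays (7.18), and 10 of the 32 histone genes were at or above it: 2 of class H1, 4 of H2A, 3 of H2B, 1 of H3 and none of H4. Just above the floor stood H2ac20 (mean 7.32), H2bc1 (7.40) and H2ac19 (7.46). Just below it stood H2bc22 (7.17), H2bc18 (7.16) and H2ac1 (7.04). Over all probe sets, the arrays' median intensity as deposited was 105 for OVA and 111 for PBS at P70, and 132 for OVA and 131 for PBS at P30. No histone gene came near the upper limit of an array: the highest value among them was 13.80, against array maxima of 19.74 to 19.93. The 9 microglia markers found were above the floor, among them P2ry12, Tmem119 and Sall1, while none of the 5 neuron markers or of the 3 oligodendrocyte lineage markers found was. The 11 neutrophil markers, the 6 monocyte markers and 7 of 8 border-associated macrophage markers were above it as well. The log2 of the summed intensities at P70 was 19.32 in OVA and 19.26 in PBS for the microglia markers. For the neutrophil markers it was 19.54 and 19.77. At P30 these were 18.91 and 19.02 for microglia and 14.87 and 16.25 for neutrophils.

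At P30, the linker histone gene H1f2 was about 4-fold higher in OVA than in PBS, and 3 other histone genes above the floor were 1.6-fold to 1.8-fold higher: H1f3, H2bc21 and H2bc1. H3c7, an H3 gene, was lower in OVA. Of the 10 genes above the floor, 4 were at least 1.5-fold higher, against 0.668% of all 8836 genes above it, and 1 was at least 1.5-fold lower, against 0.917%. Their median difference was 0.43, beside -0.014 over all genes above the floor. Over all 32 histone genes, 5 were higher (0.572% of all genes kept) and 1 was lower (0.628%), with a median of 0.10.

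At P70, H2bc3 and H1f2 were the histone genes above the floor that were at least 1.5-fold higher in OVA, and H2ac19 was lower. These were 2 of 10 higher, against 4.04% of all genes above the floor, and 1 of 10 lower, against 1.24%. The median difference of the 10 genes was 0.39, beside 0.090 over all genes above the floor. Over all 32 genes, 7 were higher (2.51% of all genes kept) and 2 were lower (1.23%), with a median of 0.31 and 25 of 32 differences above 0. Of the 8836 genes, 12 were at least 1.5-fold higher in OVA at both ages, and H1f2 was the histone gene among them.

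**Figure D1:**
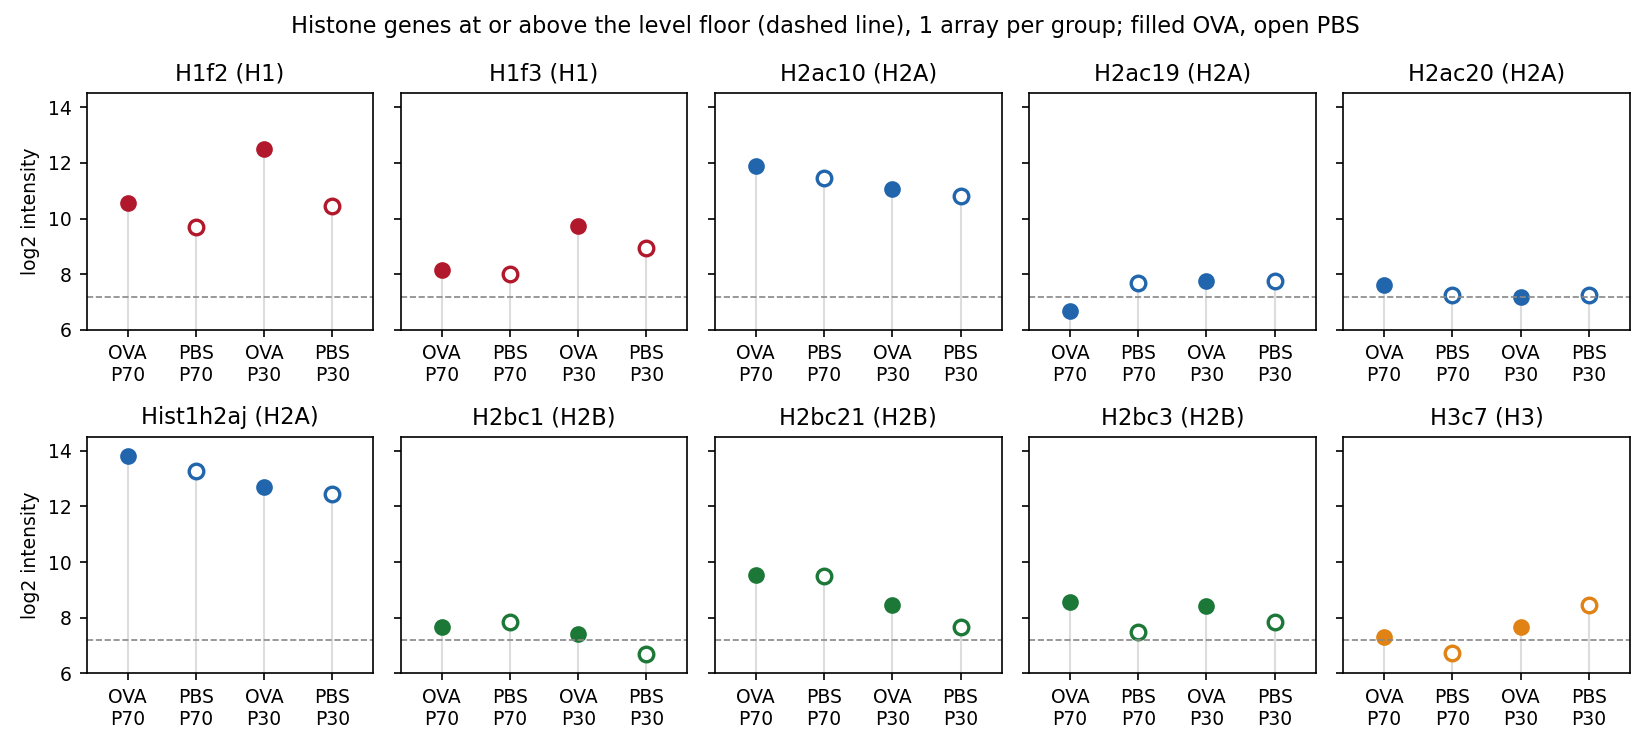
Level of the 10 histone genes at or above the floor on each array: the vertical axis is log2 intensity, filled points are OVA, open points are PBS, each point is 1 array of pooled cells, and the dashed line is the floor at 7.18. H1f2 stands highest in OVA at P30 (12.49), and H2ac10 and Hist1h2aj stand higher at P70 than at P30 as deposited, a direction that turned under quantile normalization and under lowess centring.

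The linker histone gene H1f2 (Hist1h1c) encodes histone H1.2, a widely expressed somatic H1. It had the largest OVA minus PBS difference of the histone genes at P30. Its level was 10.57 in OVA and 9.71 in PBS at P70, and 12.49 in OVA and 10.44 in PBS at P30. OVA stood above PBS at both ages, and the OVA array of P30 stood well above the other 3. The differences were 0.86 at P70 (1.81-fold, rank 76 of 8836 from the top) and 2.05 at P30 (4.15-fold, rank 2). Across the alternative scalings they lay between 0.60 and 0.87 at P70 and between 2.04 and 2.15 at P30. Differences of H1f3, H2bc21, H2bc1 and H3c7 at P30 and of H2bc3 and H2ac19 at P70 also stayed past 1.5-fold under each of these scalings.

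H1f3 (Hist1h1d), which encodes another somatic linker histone, H1.3, was at 8.15 in OVA and 8.01 in PBS at P70, and at 9.73 in OVA and 8.95 in PBS at P30. OVA was higher by 0.14 at P70 and by 0.78 at P30 (1.72-fold, rank 25). H1f3 thus passed 1.5-fold at P30 alone, as H1f2 passed it at both ages. The other 6 linker histone genes were below the floor and differed by -0.27 to 0.12 at P70 and by -0.20 to 0.11 at P30. They are H1f1 and H1f5, somatic forms; H1f6 and H1f7, known from male germ cells; H1f8, the oocyte form; and H1f10, a divergent replacement linker histone. Levels of H1f5 were between 4.72 and 4.93 on the 4 arrays and those of H1f6 between 4.27 and 4.43, whereas H1f8 ran from 6.42 to 6.71.

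The promoters of H1f2 and H1f3 are shown because these were the linker histone genes that differed. Those of H3c3 and H2bc3 are shown because both genes were also higher in OVA at P70 and lie close to H1f2 on chromosome 13. H3c3, which was below the floor, is the direct neighbour of H1f2, and H2bc3 lies 1 gene beyond H3c3. Each window runs from 250 bases before to 50 bases after the gene's start in RefSeq (GRCm38.p6) and is written 5′ to 3′ on the gene's strand. Capitals mark matches, on either strand, to the octamer ATTTGCAT, the CCAAT box, TATAAA and the H1 box AAACACA. The windows are chr13:23738557-23738856 (plus strand) for H1f2, chr13:23554782-23555081 (plus strand) for H1f3, chr13:23746484-23746783 (plus strand) for H2bc3 and chr13:23745472-23745771 (minus strand) for H3c3.
H1f2: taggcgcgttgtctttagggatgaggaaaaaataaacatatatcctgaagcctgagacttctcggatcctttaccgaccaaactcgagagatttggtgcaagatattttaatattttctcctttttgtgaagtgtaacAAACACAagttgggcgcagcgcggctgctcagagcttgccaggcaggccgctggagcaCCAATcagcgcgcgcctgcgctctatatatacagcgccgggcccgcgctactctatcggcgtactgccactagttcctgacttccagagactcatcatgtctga
H1f3: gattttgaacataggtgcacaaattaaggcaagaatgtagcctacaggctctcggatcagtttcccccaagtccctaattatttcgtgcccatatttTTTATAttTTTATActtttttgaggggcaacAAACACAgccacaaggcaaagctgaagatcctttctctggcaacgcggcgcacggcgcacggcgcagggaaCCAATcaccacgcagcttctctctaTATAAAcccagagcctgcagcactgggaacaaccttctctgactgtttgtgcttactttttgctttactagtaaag
H2bc3: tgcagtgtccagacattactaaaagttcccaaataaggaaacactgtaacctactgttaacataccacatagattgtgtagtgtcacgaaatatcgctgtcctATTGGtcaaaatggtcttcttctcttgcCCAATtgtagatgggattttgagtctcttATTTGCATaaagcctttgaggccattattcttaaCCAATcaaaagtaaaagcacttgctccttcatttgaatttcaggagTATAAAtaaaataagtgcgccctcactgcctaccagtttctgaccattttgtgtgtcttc
H3c3: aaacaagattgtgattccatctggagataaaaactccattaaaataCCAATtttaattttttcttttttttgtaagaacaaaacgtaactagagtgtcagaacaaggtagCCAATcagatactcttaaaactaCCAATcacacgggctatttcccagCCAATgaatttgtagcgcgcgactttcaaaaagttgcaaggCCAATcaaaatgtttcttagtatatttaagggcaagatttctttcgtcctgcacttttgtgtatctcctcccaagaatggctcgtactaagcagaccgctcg
With the start site counted as 0, the H1 box began at -112 in H1f2 and at -122 in H1f3, each upstream of 1 CCAAT box, at -54 in H1f2 and at -51 in H1f3. H2bc3 held an octamer at -90, 3 CCAAT boxes and TATAAA at -10, and H3c3 held 5 CCAAT boxes and none of the other 3 motifs.

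Promoters of 28 of the 32 histone genes were in the RefSeq table, which holds 32851 windows of this length. The octamer was in 8 of the 28 (28.6%), against 1.74% of all windows, and the H1 box in 7 (25.0%), against 7.18%. A CCAAT box was in 25 (89.3%), against 37.4%, and TATAAA in 14 of the 28, against 13.6%. The 7 windows with an H1 box were those of the linker histone genes H1f2, H1f3, H1f5 and H1f6 and of H2ac1, H2bc1 and H2bc14. The windows of H2ac1 and H2bc1 overlap, and so do those of H2ac12 and H2bc12. The genes of each pair face away from each other, so their matches are mostly the same letters. The counts above hold such matches once for each gene of a pair. The motifs were searched as fixed letters, without overlap between the 4 in the windows printed, and a match is a description of the sequence. Whether the OVA differences go with a motif was not tested. Of the 4 linker histone genes with an H1 box, H1f2 and H1f3 differed at least 1.5-fold at P30. H1f5 (0.08) and H1f6 (0.11) did not, but both lay far below the floor, at mean levels of 4.82 and 4.36.

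Among the H2B genes, which encode 1 of the 4 core histones, the 3 above the floor were higher in OVA at P30, each by about 1.5-fold or more. H2bc21 (Hist2h2be), known in the mouse for an H2B form of olfactory neurons, was at 9.52 in OVA and 9.48 in PBS at P70, and at 8.47 in OVA and 7.65 in PBS at P30. Its difference was 0.82 at P30 (1.77-fold, rank 23), while the 2 arrays of P70 stood 0.04 apart, a difference whose sign turned after quantile normalization and after lowess centring. H2bc1 (Hist1h2ba), the testis form of H2B, was at 7.67 in OVA and 7.85 in PBS at P70, and at 7.39 in OVA and 6.68 in PBS at P30. OVA was thus lower by 0.18 at P70 and higher by 0.72 at P30 (1.64-fold), where the PBS array lay under the floor.

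H2bc3 (Hist1h2bb), a replication-dependent H2B gene, was at 8.56 in OVA and 7.49 in PBS at P70, and at 8.42 in OVA and 7.84 in PBS at P30. Both OVA arrays stood above both PBS arrays. The difference was 1.07 at P70 (2.10-fold, rank 32) and 0.58 at P30 (1.498-fold, just short of the 1.5-fold that counted). It passed 1.5-fold at P30 after quantile normalization (0.72) and after lowess centring (0.60).

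The other 6 H2B genes were below the floor, and those named here beyond H2bc18 and H2bc22 were chosen after their values were seen. H2bc18 (Hist2h2bb) was at 7.48 in OVA and 6.57 in PBS at P70, and at 7.22 in OVA and 7.36 in PBS at P30. The PBS array of P70 was the low one, and OVA was higher by 0.91 at that age. H2bc22 (Hist1h2bp) differed by 0.03 at P70 and by 0.48 at P30. H2bc9 (Hist1h2bh) was the other histone gene at least 1.5-fold higher at both ages, by 0.63 at P70 and by 0.73 at P30, from levels of 4.49 to 5.51 that are far under the floor. H2bc14 (Hist1h2bm) went the other way and was lower in OVA, with differences of -0.60 at P70 and -0.42 at P30. The remaining genes, H2bc12 and the pseudogene H2bu1-ps, differed by 0.15 and 0.42 at P70 and by 0.31 and 0.02 at P30.

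**Figure D2:**
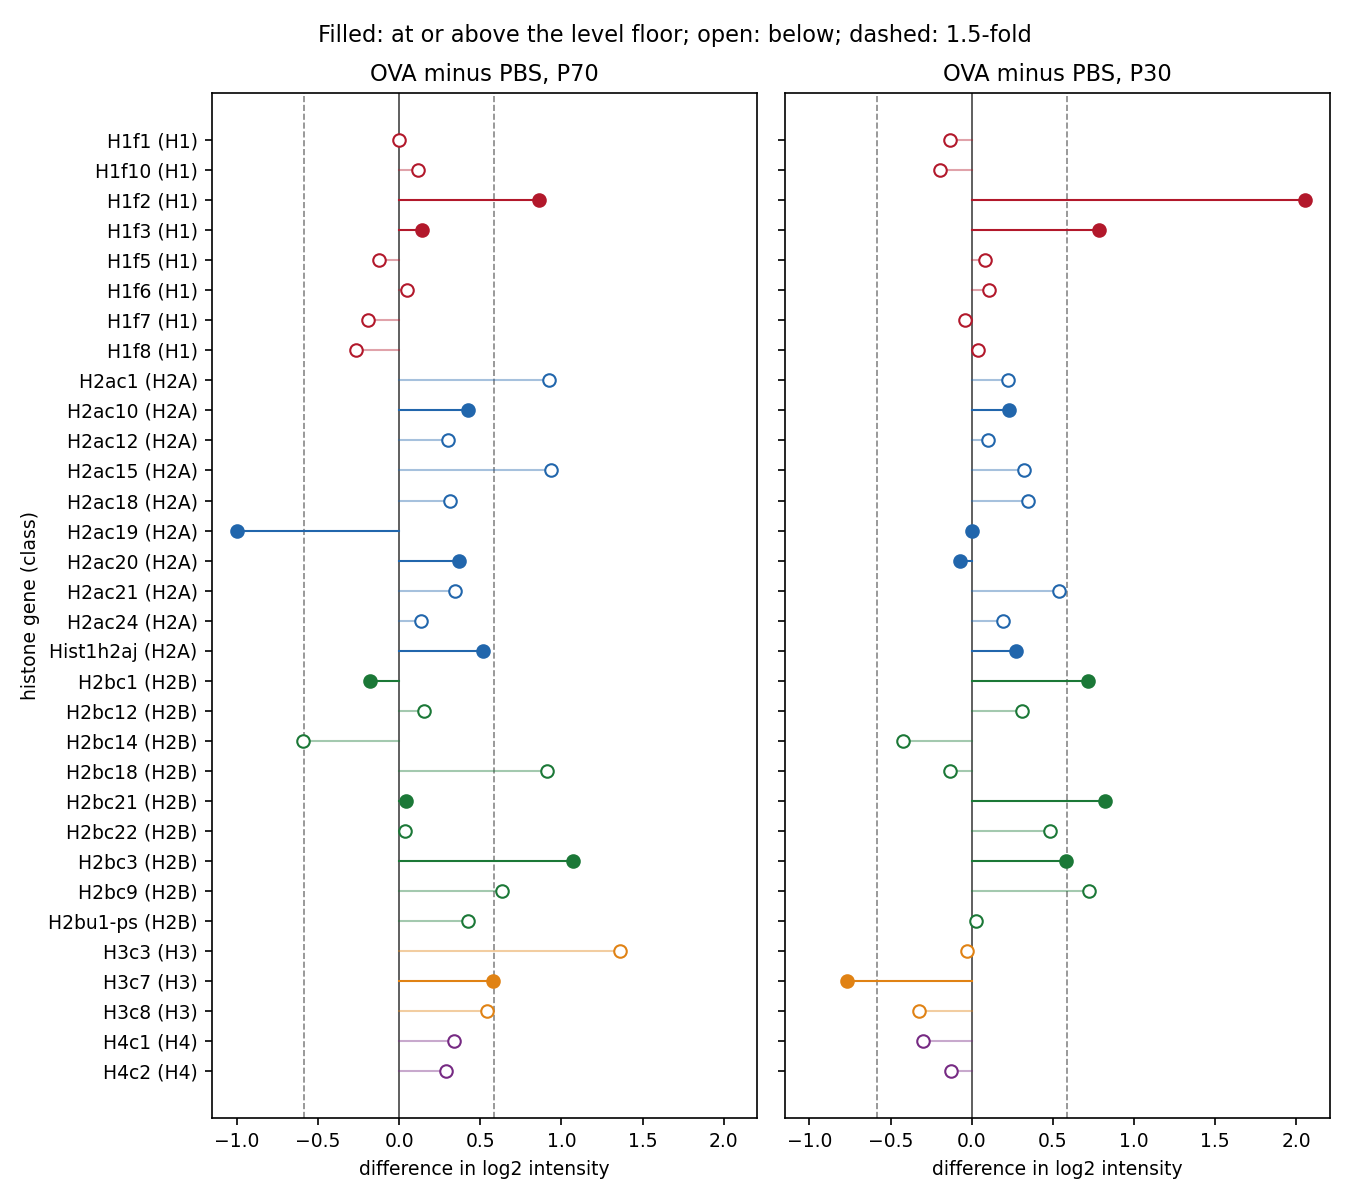
OVA minus PBS difference of each of the 32 histone genes at P70 (left) and P30 (right): the horizontal axis is the difference in log2 intensity, rows are genes with their class, filled points are genes at or above the floor, open points are genes below it, and dashed lines mark 1.5-fold. H1f2 stands at 2.05 at P30 and 0.86 at P70. The 3 H3 genes lie left of 0 at P30, H3c3 by only -0.03, and right of it at P70.

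No H2A gene reached 1.5-fold at P30, and the 10 differences lay between -0.07 and 0.54. H2ac10 (Hist1h2af), a replication-dependent H2A gene, was at 11.88 in OVA and 11.45 in PBS at P70, and at 11.05 in OVA and 10.82 in PBS at P30. Hist1h2aj was at 13.80 in OVA and 13.29 in PBS at P70, and at 12.71 in OVA and 12.44 in PBS at P30. In both genes OVA stood above PBS at each age, by 0.42 (H2ac10) and 0.52 (Hist1h2aj) at P70 and by 0.23 and 0.28 at P30, all short of 1.5-fold. Hist1h2aj has no gene number in the annotation, and RefSeq lists its name as a synonym of the pseudogene H2ac14, so its signal is uncertain.

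H2ac19 (Hist2h2aa2) and H2ac18 (Hist2h2aa1) are adjacent, near-identical H2A genes on chromosome 3, and they went apart. H2ac19 was at 6.68 in OVA and 7.68 in PBS at P70, and at 7.75 in OVA and 7.74 in PBS at P30. The OVA array of P70 was the low one of the 4, under the floor, and its difference from PBS was -0.9996 (19th of 8836 from the bottom). H2ac18, below the floor, differed by 0.31 at P70 and 0.35 at P30. A probe set that carries both symbols was at 12.90 in OVA and 12.39 in PBS at P70, and at 13.08 in OVA and 12.61 in PBS at P30, higher in OVA by 0.52 and 0.47. The signal under the name H2ac19 therefore differed in direction at P70 from the one that the annotation assigns to the gene pair.

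H2ac20, an H2A gene beside H2bc21, was at 7.61 in OVA and 7.25 in PBS at P70, and at 7.16 in OVA and 7.24 in PBS at P30. Its differences, 0.37 and -0.07, did not reach 1.5-fold. The remaining H2A genes were below the floor. H2ac1 (Hist1h2aa), the testis form of H2A and the neighbour of H2bc1, was at 7.58 in OVA and 6.65 in PBS at P70, and at 7.07 in OVA and 6.84 in PBS at P30. It was higher in OVA by 0.93 at P70, the age at which H2bc1 was lower by 0.18. H2ac15 (Hist1h2ak), named after its values were seen, was likewise higher by 0.93 at P70 and by 0.32 at P30. H2ac12, H2ac21 and H2ac24 differed by 0.13 to 0.34 at P70 and by 0.10 to 0.54 at P30.

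The 3 H3 genes shared a direction that was opposite at the 2 ages, though H3c7 alone was above the floor. H3c7 (Hist1h3f), an H3.2 gene, was at 7.31 in OVA and 6.73 in PBS at P70, and at 7.67 in OVA and 8.44 in PBS at P30. PBS was the lowest array at P70 and the highest at P30, and OVA lay between. The difference was 0.58 at P70 (1.494-fold, just short of the threshold) and -0.77 at P30 (1.71-fold lower, 31st of 8836 from the bottom). It passed 1.5-fold at P70 after median centring (0.59) and after lowess centring (0.67).

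H3c3 (Hist1h3c) and H3c8 (Hist1h3g) are below the floor and are named because they complete the class. H3c3 was at 7.19 in OVA and 5.83 in PBS at P70, and at 7.50 in OVA and 7.53 in PBS at P30. The PBS array of P70 stood apart from the other 3, and OVA was higher by 1.36 at that age, with a difference of -0.03 at P30. H3c8 was at 4.75 in OVA and 4.21 in PBS at P70, and at 5.27 in OVA and 5.59 in PBS at P30, with differences of 0.54 and -0.32. The annotation also attaches H3c3 and H3c7 to shared probe sets, so the 3 signals may overlap in what they measure. Of the H4 genes, H4c1 differed by 0.33 at P70 and -0.30 at P30, and H4c2 by 0.29 and -0.13. H4c2 has another, dimmer probe set that differed by 0.03 at P70 and by 0.52 at P30, so the 2 probe sets of this gene disagree at P30, and the sign of the brighter one there turned under 1 of the alternative scalings.

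Because copies are near-identical, 39 further probe sets carry several symbols of which at least 1 is a histone gene, and 25 of them were above the floor. They are no members, and many carry the same symbols, so they are not separate observations of a class. At P30, 5 of the 25 were at least 1.5-fold higher in OVA and 1 was lower, with a median of 0.38, against 0.668% and 0.917% of all genes above the floor. At P70, 2 were higher and none was lower, with a median of 0.14, against 4.04% and 1.24%. Those quoted below were chosen after their values were seen.

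The H2B sets resembled the H2B genes at P30. All 6 H2B sets above the floor were higher in OVA than in PBS at P30, by 0.38 to 2.01. Of them, 3 passed 1.5-fold, against 0.668% of all genes above the floor. The largest difference belonged to a set for Hist1h2bc, Hist1h2bg and Hist1h2be, which was at 12.44 in OVA and 12.28 in PBS at P70, and at 12.34 in OVA and 10.33 in PBS at P30. The PBS array of P30 was the low one of the 4. Another set for the same 3 genes was at 10.42 in OVA and 10.35 in PBS at P70, and at 12.10 in OVA and 11.27 in PBS at P30. Both sets were higher in OVA at P30, but they went apart with age. P70 minus P30 was 0.10 in OVA and 1.96 in PBS for the set with the larger OVA difference, and -1.68 in OVA and -0.92 in PBS for the other.

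A set for the linker histone gene Hist1h1e together with 3 H2B genes did not follow H1f2: it was lower in OVA at P30, by 0.49, and higher at P70, by 0.29. An H3 set for 8 genes, Hist1h3e first among them, was at 8.27 in OVA and 7.52 in PBS at P70, and at 8.83 in OVA and 9.58 in PBS at P30. Its differences of 0.75 at P70 and -0.75 at P30 had the same signs as those of H3c7, whose symbol it also carries. The other H3 set above the floor carries the same 8 symbols and was higher in OVA at both ages, by 0.08 at P70 and by 0.39 at P30. A set for H2A and H3 genes that includes H3c7 went the other way at both ages, with -0.24 at P70 and 0.45 at P30. The probe sets that carry H3c7 therefore disagree in direction. None of the 7 H2A sets above the floor passed 1.5-fold in either comparison, with ranges of -0.06 to 0.58 at P70 and -0.22 to 0.47 at P30. Of the 8 H4 sets above the floor, 1 was at least 1.5-fold higher at P70 and 2 were at P30, against 4.04% and 0.668% of all genes above it. The annotation attaches 13 symbols to each H4 set, so no H4 gene can be told from another here.

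**Figure D3:**
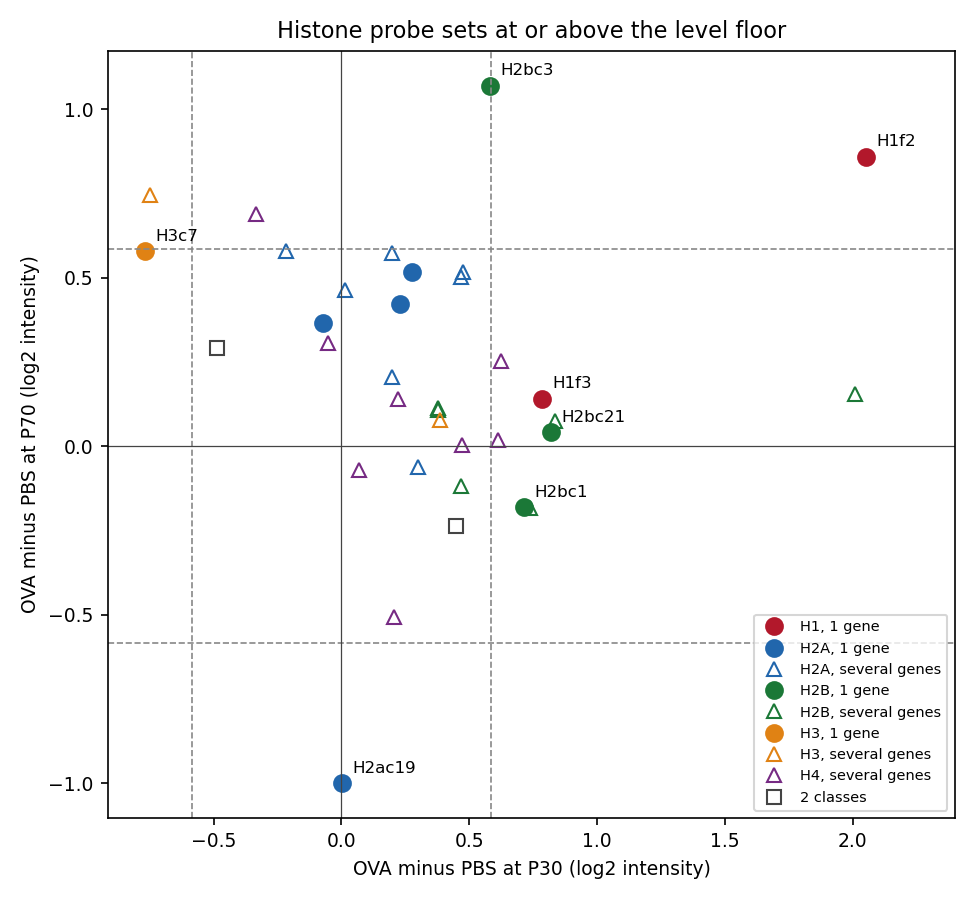
OVA minus PBS difference at P30 (horizontal axis) and at P70 (vertical axis), both in log2 intensity, for histone probe sets at or above the floor: filled circles carry 1 gene, open triangles several genes of 1 class, squares genes of 2 classes, and dashed lines mark 1.5-fold. H1f2 stands at 2.05 and 0.86, and an H2B set with several genes stands at 2.01 at P30 with 0.15 at P70.

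Histone genes differed with age in both directions: H1f2 and H1f3 were lower at P70 in both treatments, H3c7 was at least 1.5-fold lower in PBS but not in OVA, and H2bc21 was higher. The age comparisons use the same 4 arrays as the OVA comparisons, so their values are not independent of those above. In OVA, 3 of the 10 genes above the floor were at least 1.5-fold higher at P70 than at P30, against 38.6% of all genes above the floor, and 3 were at least 1.5-fold lower, against 4.44%. In PBS, 4 were higher, against 29.0%, and 3 were lower, against 3.04%. After quantile normalization and after lowess centring the split was 0 higher and 3 lower in OVA and 2 higher and 3 lower in PBS. Of all 8836 genes above the floor, quantile normalization gave 1126 higher and 1060 lower in OVA and 1007 higher and 879 lower in PBS. Under lowess centring 13.3% were higher and 10.9% lower in OVA, and 11.6% higher and 8.85% lower in PBS. The median difference of the 10 genes was 0.20 in OVA and -0.029 in PBS, beside 0.38 in OVA and 0.25 in PBS over all genes above the floor. Over all 32 genes, 5 were higher and 3 lower in OVA (20.1% and 7.46% of all genes kept), and 5 were higher and 6 lower in PBS (15.1% and 4.26%).

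H1f2 was lower at P70 than at P30 by 1.92 in OVA (17th of 8836 from the bottom) and by 0.73 in PBS. H1f3 was lower by 1.59 in OVA and by 0.94 in PBS. For both genes the lower value at P70 held in each treatment and under every scaling tried. H3c7 differed by -0.36 in OVA and by -1.71 in PBS, where it stood 9th of 8836 from the bottom. The other H3 genes had the same signs: H3c3 differed by -0.31 in OVA and -1.70 in PBS, and H3c8 by -0.52 in OVA and -1.38 in PBS.

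H2bc21 was higher at P70 by 1.06 in OVA and by 1.84 in PBS, and the value in OVA fell short of 1.5-fold after quantile normalization (0.46) and after lowess centring (0.45). H2bc1 was higher by 0.27 in OVA and by 1.17 in PBS. H2ac10 was higher as deposited, by 0.83 in OVA and 0.64 in PBS, but lower after quantile normalization, by 0.26 in OVA and 0.18 in PBS, and after lowess centring. Hist1h2aj behaved alike, with 1.09 in OVA and 0.85 in PBS as deposited, and -0.17 in OVA and -0.091 in PBS after quantile normalization. H2ac19 differed by -1.07 in OVA and by -0.07 in PBS, so its low value on the OVA array of P70 carries both its OVA and its age difference. H2bc3 had differences of 0.14 in OVA, a sign that turned under other scalings, and -0.35 in PBS, and H2ac20 of 0.45 in OVA and 0.01 in PBS. Among the shared probe sets, an H4 set named first for Hist1h4d was at 12.91 in OVA and 12.91 in PBS at P70 and at 10.71 in OVA and 10.24 in PBS at P30, higher at P70 in both treatments.

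**Figure D4:**
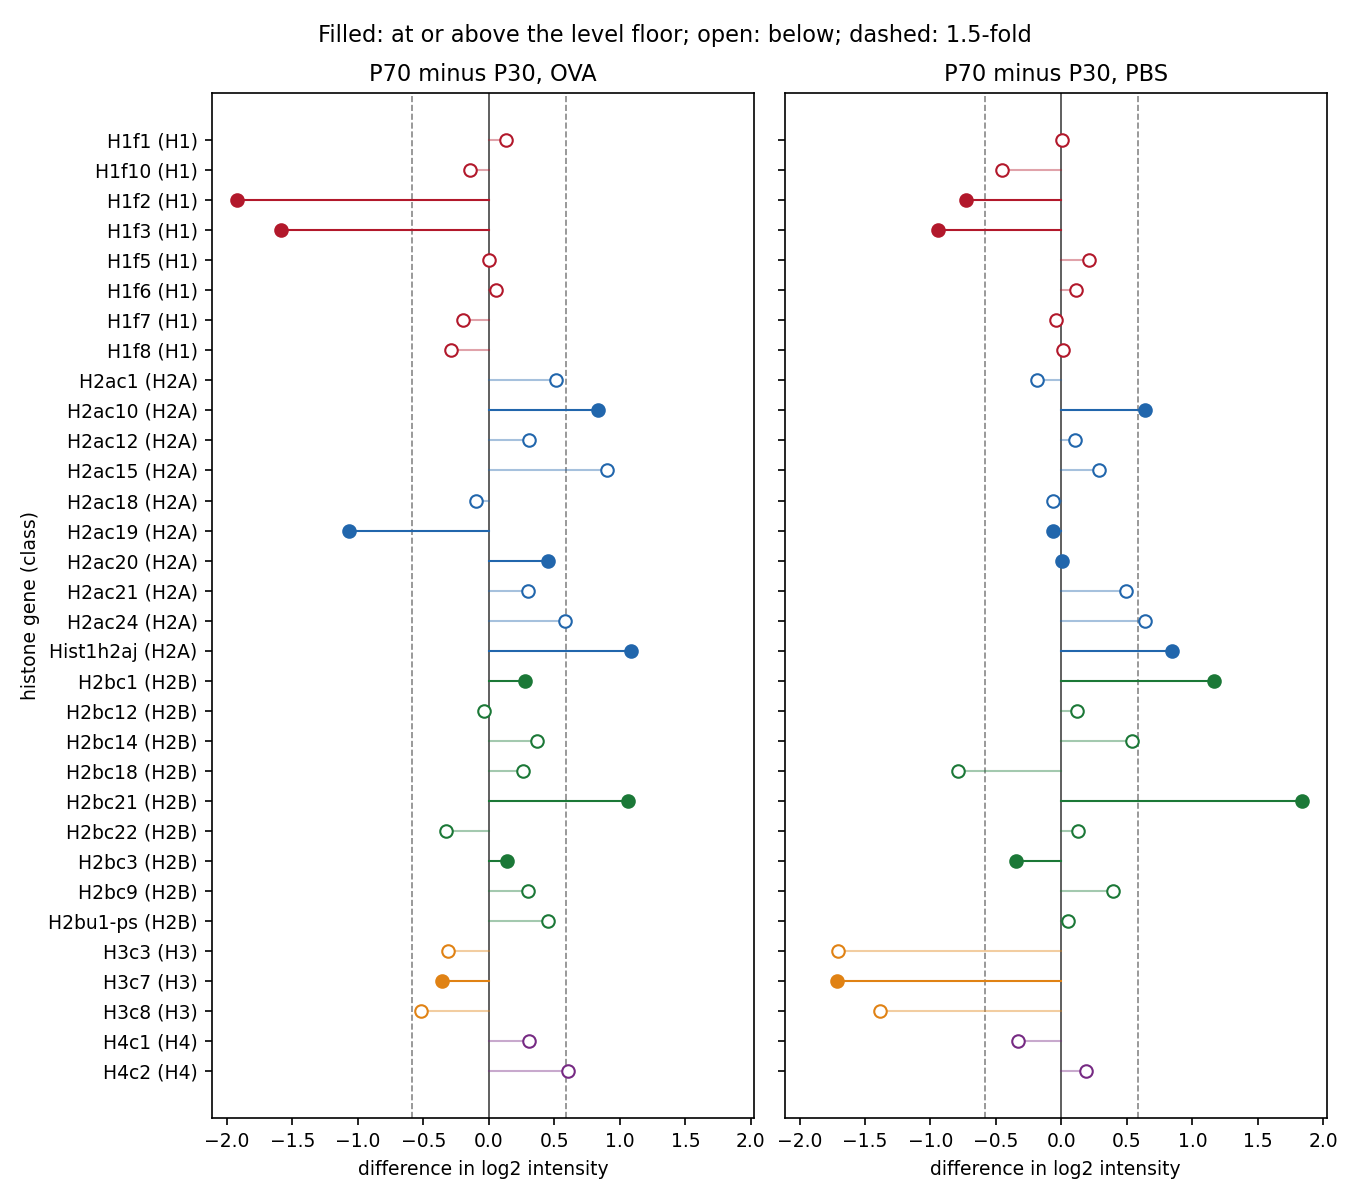
P70 minus P30 difference of the 32 histone genes in OVA (left) and PBS (right): the horizontal axis is the difference in log2 intensity, rows are genes with their class, filled points are at or above the floor, open points below, and dashed lines mark 1.5-fold. H1f2 and H1f3 lie left of 0 in both treatments and the 3 H3 genes lie farther left in PBS; the rightward points of H2ac10 and Hist1h2aj turned sign under quantile normalization and lowess centring.

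The order of the genes on the chromosomes puts several of these values side by side. On chromosome 13, H1f2 and H3c3 are direct neighbours and 1 gene lies between H3c3 and H2bc3. All 3 were at least 1.5-fold higher in OVA at P70, by 0.86, 1.36 and 1.07, though H3c3 was below the floor. At P30 they differed by 2.05, -0.03 and 0.58, so they did not move as a block at both ages. These genes were picked after their values were seen. The flanking members, all below the floor, were short of 1.5-fold at P70: H1f6 on 1 side (0.05), and H4c2 (0.29) and H4c1 (0.33) on the other. In another stretch, H2ac10, H3c8, H2bc9 and H3c7 follow each other and 1 gene separates H3c7 from H1f3. Their P30 differences were 0.23, -0.32, 0.73, -0.77 and 0.78 in that order, which alternate in sign. Of these genes, H3c8 and H2bc9 lay far below the floor, at mean levels of 4.95 and 5.03. The testis pair H2bc1 and H2ac1 are neighbours too, with -0.18 and 0.93 at P70 and 0.72 and 0.22 at P30. On chromosome 3, H2ac21, H2ac20 and H2bc21 are consecutive and differed by 0.34, 0.37 and 0.04 at P70 and by 0.54, -0.07 and 0.82 at P30. H2ac1 and H2ac21 were below the floor too.

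Genes that act on histones or mark the cell cycle were set beside the family. None of the 17 genes above the floor for transcription and processing of histone mRNA passed 1.5-fold in either OVA comparison as deposited. Their medians were 0.16 at P70 and 0.0006 at P30. Slbp, which binds the stem-loop at the end of histone mRNA, differed by 0.35 at P70 and 0.09 at P30, and Npat, the coactivator of histone genes in S phase, by 0.37 at P70 and 0.02 at P30. Casp8ap2, needed with Npat for histone gene expression, differed by 0.58 at P70, just short of 1.5-fold, and by 0.11 at P30. After median centring, 1 of the 17 genes passed 1.5-fold at P70. Cstf2t, below the floor, differed by -0.16 at P70 and by 0.65 at P30.

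Of 20 histone chaperones above the floor, 1 was higher in each comparison. Asf1a, which hands H3 and H4 to chromatin assembly, differed by -0.07 at P70 and by 0.71 at P30, and Nap1l1, a chaperone of H2A and H2B, by 0.76 at P70, or 0.53 under the scaling that lowered it most, and by 0.01 at P30. The 12 genes above the floor for DNA replication and S phase held none that passed 1.5-fold, with medians of 0.089 at P70 and -0.011 at P30. Below the floor, Ccna2 (0.91) and Ccne1 (0.66) passed it at P70, and no gene found on this list was lower by that size. Pcna, the sliding clamp of DNA polymerase, differed by -0.07 at P70 and by -0.01 at P30, and Tyms, which makes thymidylate, by 0.48 and 0.07. Of 7 genes of G2 and mitosis above the floor, 2 were higher at P70 and none passed at P30. Kif23, below the floor, differed by 0.71 at P70 and 0.05 at P30. Mki67, the proliferation antigen Ki-67, was at 9.79 in OVA and 8.56 in PBS at P70, and at 6.79 in OVA and 7.13 in PBS at P30. Stmn1, a regulator of microtubules, differed by 0.87 at P70 and by 0.28 at P30.

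Replacement histone variants, which are made outside S phase too, gave smaller values at P30 among the genes above the floor. Of 12 listed, 8 were found, and no H3.3 gene was among them. Below the floor, H2ax differed by 0.67 at P70 and 0.07 at P30, and H2bl1 by -0.62 at P70 and 0.73 at P30. None of the 5 above the floor passed 1.5-fold at P30, with a median of -0.13, and 1 did at P70, with a median of 0.047. That gene was H2az2, a form of H2A.Z, which was at 11.35 in OVA and 10.75 in PBS at P70, and at 8.46 in OVA and 8.77 in PBS at P30; its P70 difference of 0.60 was 0.40 under the scaling that lowered it most. H2az1, the other H2A.Z gene, differed by -0.01 at P70 and by -0.13 at P30. Whether the 2 kinds of histone gene differ was not tested.

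**Figure D5:**
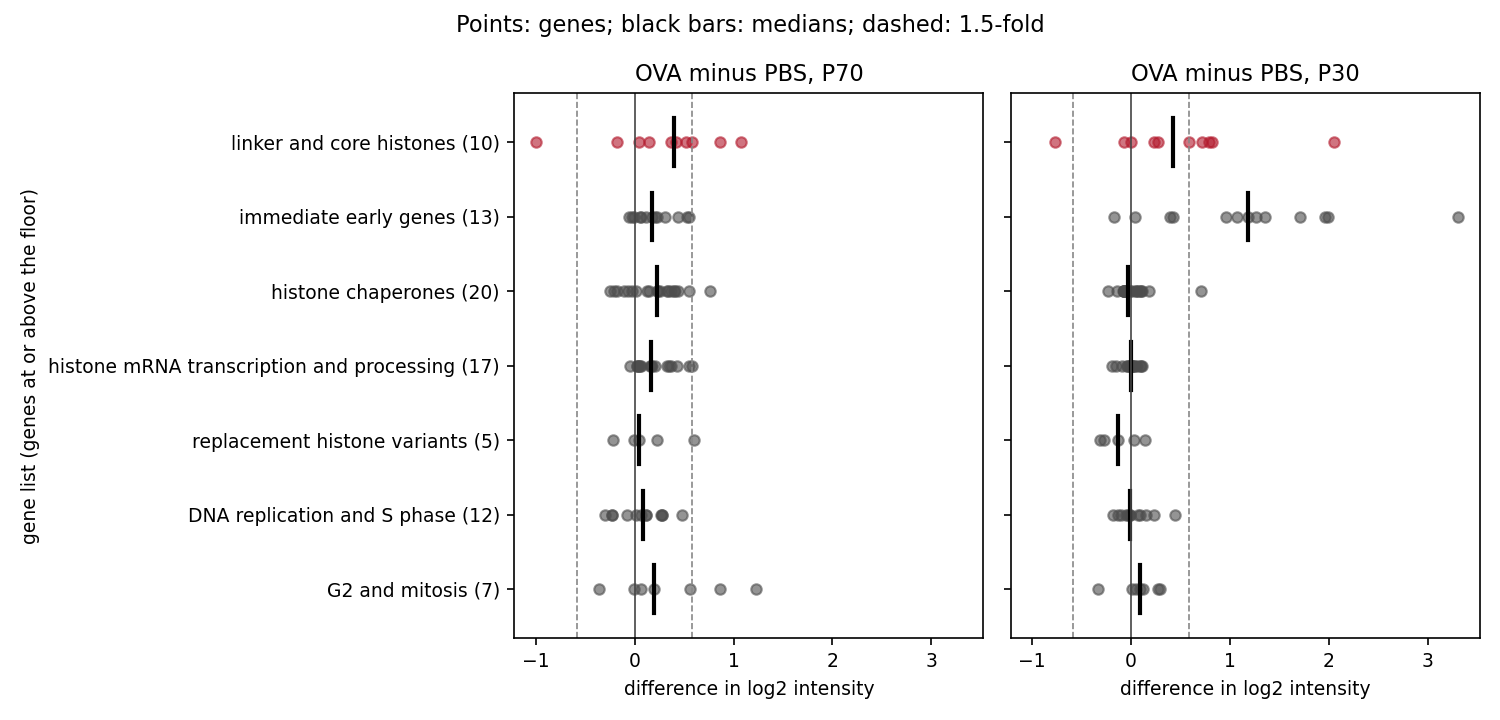
OVA minus PBS differences at P70 (left) and P30 (right) of the histone genes (red) and of 6 other gene lists (grey), genes at or above the floor: the horizontal axis is the difference in log2 intensity, each point is 1 gene, black bars are medians, and dashed lines mark 1.5-fold. At P30 the medians are 0.43 for the 10 histone genes and 1.18 for the 13 immediate early genes, and those of the other 5 lists lie between -0.13 and 0.09.

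Other genes moved on the same arrays as the histone genes. At P30, 9 of 13 immediate early genes above the floor, which respond to stimuli within minutes and were known from earlier results of these data to differ, were at least 1.5-fold higher in OVA, with a median of 1.18. Their summed level was 12.95 in OVA and 12.72 in PBS at P70, and 15.67 in OVA and 13.59 in PBS at P30. Markers of neutrophils were lower in OVA at P30, 7 of 11 by at least 1.5-fold. Their summed level was 19.54 in OVA and 19.77 in PBS at P70, and 14.87 in OVA and 16.25 in PBS at P30. At P70, 5 of 7 markers of border-associated macrophages were higher in OVA, and their summed level was 13.16 in OVA and 11.69 in PBS at P70, and 10.93 in OVA and 11.13 in PBS at P30. Of 6 monocyte markers, 2 were higher in OVA at P70, and Ttr, a gene of the choroid plexus, was higher in OVA by 4.12 at P70 and by 1.87 at P30. None of the 9 microglia markers passed 1.5-fold in either OVA comparison.

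Beside the age differences of the histone genes, markers of other cells and other gene lists also differed with age. Of 11 neutrophil markers, 9 were at least 1.5-fold higher at P70 than at P30 in OVA and 9 in PBS, and of 6 monocyte markers 6 were in OVA and 5 in PBS, with the same numbers higher under each scaling. The summed level of the monocyte markers was 14.57 in OVA and 14.40 in PBS at P70, and 10.998 in OVA and 10.903 in PBS at P30. Of the 7 border-associated macrophage markers, 6 were higher in OVA and 3 in PBS. Of 9 microglia markers, 4 were higher and none lower in OVA and 3 were higher and 1 lower in PBS, which became 1 higher and 4 lower in OVA and 1 higher and 5 lower in PBS after quantile normalization. Of the 13 immediate early genes, 9 were lower at P70 in OVA and 6 in PBS. Of the 5 replacement histone variants, 4 were higher in OVA, or 2 after quantile normalization and after lowess centring, and 3 in PBS. In pooled cells, fewer cells of a type cannot be told apart from less RNA per cell, and the part of these genes and cells in the histone values was not tested.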

How the data were processed

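Expression arrays of 4 pooled microglia preparations, OVA and PBS at P70 and at P30, were read from the deposited table, whose linear intensities the authors had already normalized and summarised to 1 value for each probe set. Per the labels' protocols, TRIzol and a column kit yielded the RNA, which a GeneChip WT Pico kit amplified and labelled. The tools named in the submitters' processing notes are Affymetrix Expression Console 1.4.1 and RMA, with no role, and the scaling between arrays and the genome build are not given in the sources used here. Log2 values were computed here from the deposited intensities, and not normalized again.

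Of 65956 probe sets, 30604 carried 1 symbol, 2146 several and 33206 none here. For 834 of them the symbol was brought up to date by Entrez ID from a RefSeq gene table (GRCm38.p6, for names and gene order alone). Leaving out 12687 probe sets of antigen receptor segments, vomeronasal and olfactory receptors, small RNAs and predicted genes left 17671 genes, 8836 of them at or above the median gene's mean over the 4 arrays. H1f0, which the name rule would also take, was not analysed here. With 1 array per group there was no test, and the number of arrays limits the precision; genes were counted at 1.5-fold beside the same count over all genes. Promoters are RefSeq windows from 250 bases before to 50 after the start.

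The members and lists were chosen with earlier results of these data known. Named genes mostly followed a rule. It took members above the floor that differed at least 1.5-fold in an OVA comparison, and the brightest and most different per class. It also took the 3 just above and the 3 just below the floor, and leading members of each other list. Genes named outside the rule are marked in the text only in part: Slbp, Tmem119, Sall1 and several histone genes are not. Summed levels of marker lists are the log2 of the summed intensities of all listed genes found. Lists of neutrophil precursor, T and NK cell, B cell, erythroid, astrocyte and endothelial markers were also read, with 1 to 3 genes of each above the floor; 2 astrocyte markers were at least 1.5-fold higher in OVA at P70, and no gene of the other 5 lists passed that size in an OVA comparison. Alternatives were median centring, quantile normalization, lowess centring along the level (fraction 0.3), 3 other level filters (the stricter one at the 75th percentile), the mean of all probe sets, the addition of probe sets with several symbols, and a 2-fold threshold. Scripts ran in Python 3.11.15 with numpy 2.4.6, pandas 2.3.3 and statsmodels 0.14.6, and the calling of genes was tested on simulated data.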

Additional observations from a re-analysis of the deposited data

Results flagged for a closer look

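Of the 10 histone genes above the floor, 3 had OVA minus PBS differences of opposite sign at P70 and P30 with at least 1 of them past 1.5-fold, and with 1 array per group the difference between the ages was not tested. H3c7 stood at 0.58 at P70 and at -0.77 at P30. H2bc1 stood at -0.18 at P70 and at 0.72 at P30. H2ac19 stood at -0.9996 at P70 and at 0.00 at P30, where its sign turned under median centring.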

How the results depend on the processing

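Scaling bore most on the comparisons of age: the median over all genes above the floor was 0.38 in OVA and 0.25 in PBS for P70 minus P30 as deposited, and -0.027 and -0.024 after quantile normalization. In the same 2 comparisons the median of the 10 histone genes was 0.20 in OVA and -0.029 in PBS as deposited; it turned to -0.28 in OVA and moved to -0.17 in PBS under quantile normalization, to -0.27 and -0.17 under lowess centring, and turned to 0.022 in PBS under median centring. The genes higher at P70 numbered 0 in OVA and 2 in PBS under both quantile normalization and lowess centring. Of all genes above the floor, 12.7% in OVA and 11.4% in PBS were higher under quantile normalization, and 13.3% and 11.6% under lowess centring. The OVA median at P70 was 0.23 after quantile normalization and 0.29 after lowess centring. With no level filter (32 genes), 7 were higher and 2 lower in OVA at P70, against 2.51% and 1.23% of all genes in that setting. The P30 median was 0.10. For age, 5 were higher in OVA, against 20.1%, and 6 lower in PBS, against 4.26%, with a median of 0.032 in PBS. Shares below are likewise of all genes in each setting. The stricter filter (5 genes) gave 1 higher and 0 lower at P70, against 5.68% and 1.11%. At P30 it gave 0 lower, against 1.24%, with a median of 0.78, and its age medians were 0.83 in OVA and 0.64 in PBS. Filtering on the highest array (14 genes) gave 5 higher at P70, against 4.32%, and a median of 0.25 at P30. With age in PBS it gave 5 lower, against 3.88%. With probe sets of several symbols added (34 entries), 4 were higher at P70, against 4.05%, with a median of 0.15. At P30, 9 were higher and 2 lower, against 0.723% and 0.926%. For age, 11 were higher and 8 lower in OVA (median 0.040), against 38.5% and 4.48%. In PBS they were 13 and 7 (median 0.013), against 29.1% and 3.08%. At 2-fold, 1 was higher and 0 lower at P70, against 0.487% and 0.204%, and 1 higher and 0 lower at P30, against 0.192% and 0.204%. For age in PBS 2 were higher and 1 lower, against 13.5% and 0.781%. These changes of count follow from the genes or threshold each setting takes; for the scalings the cause was not tested.

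Of 200 values of single genes over 5 of these settings, 181 kept their direction and side of 1.5-fold, 6 changed side alone and 13 turned. The mean of all probe sets and the addition of probe sets with several symbols could not change these values. Each histone gene above the floor had 1 probe set, and no added probe set was assigned to any of them, so all 40 values stayed the same in each of those settings. The changes all arose under median centring, quantile normalization or lowess centring. Of these 13, 8 were past 1.5-fold as deposited, all age differences of H2ac10 and Hist1h2aj: under quantile normalization -0.26 and -0.17 in OVA and -0.18 and -0.091 in PBS, and under lowess centring -0.25 and -0.064 in OVA and -0.20 and -0.11 in PBS. The other 5 were short of 1.5-fold as deposited and stayed so: H2bc3 for age in OVA (-0.29 under quantile normalization, -0.28 under lowess centring), H2bc21 in OVA minus PBS at P70 (-0.11 under both) and H2ac19 in OVA minus PBS at P30 (-0.01 under median centring). H1f2 stayed past 1.5-fold in all 4 comparisons under median centring, quantile normalization and lowess centring. No paired analysis was possible because each group had 1 array and the groups share replicate number 1 alone, and for the same reason no replicate could be left out. The 22 genes below the floor are limited by signal, and no deposited value gives a detection call.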
